A study of Mus musculus with 8 samples.

Results

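Matricellular proteins are secreted into the extracellular matrix, where they act on cells more than they bear load. The 10 genes described here were chosen by name: Postn (periostin), Tnc (tenascin C), Thbs1 and Thbs2 (thrombospondins), Sparc, Spp1 (osteopontin), Cthrc1, Ccn1, Ccn2 and, beside them, Fn1 (fibronectin). All 10 had a row among the 53700 gene identifiers of the count table, and all 10 were among the 18656 genes tested. Ribosome-bound RNA was measured in 8 libraries from skin of mice of the genotype AdipoqCreER;R26-NuTRAP, all given tamoxifen; the labels call the cells adipocytes. The protocol repeated in the labels of all 8 libraries puts wounding at 7 to 9 weeks of age, and the uninjured mice have no age of their own there. AdipoqCreER is a tamoxifen-inducible recombinase under control of the adiponectin gene, and NuTRAP is a reporter that puts GFP on the ribosomes of cells in which the recombinase has acted. RNA was taken from polysomes caught with an antibody to GFP. The groups were uninjured skin (n = 3) and skin 3 days (n = 2) and 7 days (n = 3) after 4 full-thickness wounds of 5 mm, read from the titles with the abbreviation there taken as days post wounding. The labels do not say whether the libraries of a group came from separate mice or from pools, so p-values measure the spread between these libraries, which may be technical in part.

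In intact skin most matricellular genes are expressed at low levels, and they come on during repair in fibroblasts, macrophages, endothelium and other cells. Periostin and tenascin C bind collagen, fibronectin and integrins, and fibronectin is assembled by integrins into the provisional matrix on which cells move and collagen is laid down. Ccn1 and Ccn2 are early targets of serum, TGF-beta and YAP signalling, whereas thrombospondins restrain vessel growth and Thbs1 can activate latent TGF-beta.

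The libraries held 5308959 to 17751689 counts. Adipocyte markers (7 genes, among them Adipoq and Plin1) were all detected in every library and summed to 63990 to 84521 CPM (counts scaled to the TMM-normalised size of the library) in uninjured, 55254 and 73747 CPM in day 3 and 28387 to 73996 CPM in day 7 libraries. Cfd made up most of each sum, with means of 55160, 46336 and 34169 CPM in uninjured, day 3 and day 7 libraries. Markers of other cell types were present too, so each level below is that of the recovered RNA, in which fewer cells of a type and less RNA per cell cannot be told apart. The day 3 libraries differed in luminal mammary epithelial markers (7 genes), which summed to 1544 CPM in replicate 1 and 24.9 CPM in replicate 2. These sums were 11.3 to 26.7 CPM in uninjured and 543 to 1197 CPM in day 7 libraries. The columns of each group carry a leading number of their own in the table, whose meaning is not given. Whatever it marks cannot be told apart from the group.

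In uninjured skin one gene of the set dominated. Sparc, a collagen-binding glycoprotein that adipocytes also make, was at 3085, 3112 and 2438 CPM in uninjured replicates 1, 2 and 3, and it held 87.8% to 92.8% of all counts of the 10 genes there. Genes are compared below per kilobase of exon, by the length deposited for all exons of a gene. Which transcripts were made was not examined, so comparisons between genes depend on that length. On this scale Sparc was at 760 ± 101 CPM per kilobase (SD, n = 3), the 69th highest of the tested genes. Thbs1, Thbs2 and Ccn1 followed at 17.9 ± 11.3, 17.6 ± 4.35 and 14.0 ± 15.0 CPM per kilobase, with ranges that overlapped from one to the next. Postn, Fn1 and Ccn2 lay at 1.53 ± 0.57, 1.51 ± 0.42 and 1.14 ± 0.21 CPM per kilobase, below every library of the first 4. Spp1, Cthrc1 and Tnc were lowest, at 0.480 ± 0.10, 0.428 ± 0.06 and 0.281 ± 0.37 CPM per kilobase.

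At day 7 against uninjured skin, 6 of the 10 genes rose and 0 fell (edgeR quasi-likelihood test, Benjamini-Hochberg adjusted p under 0.05 over all tested genes). Over all tested genes 5.90% rose and 1.77% fell. At an unadjusted p under 0.05, 6 of the 10 lay higher and 1 lower, and DESeq2 likewise called 6 higher and 1 lower, the last being Thbs1. Of all 18656 tested genes, 3214 lay higher and 1773 lower at that unadjusted p. DESeq2 called 1871 higher and 647 lower over the whole table. The median log2 fold change of the 10 genes was 2.89, beside 0.04 over all tested genes. Every day 7 library lay above every uninjured library for 7 of the 10 genes, an order that 16.7% of tested genes showed.

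**Figure D1:**
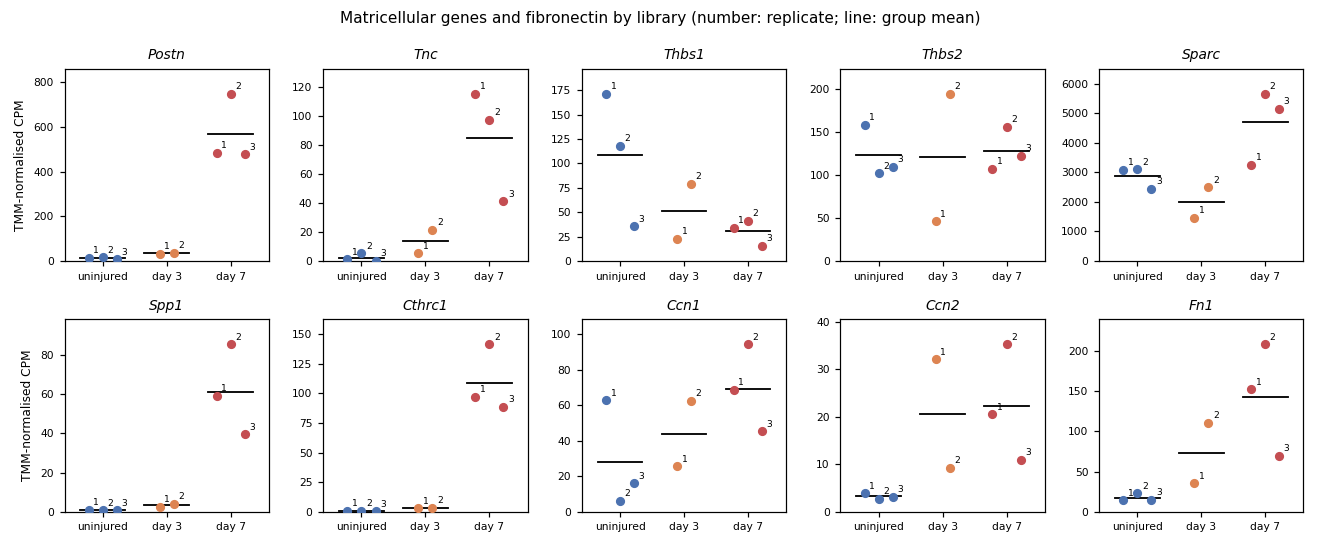
Each panel plots 1 gene, with TMM-normalised CPM on the y axis (starting at 0, a scale of its own per panel) and 1 point per library, numbered by replicate, in uninjured, day 3 and day 7 skin; lines are group means. Cthrc1, Spp1 and Postn are near the bottom in the 5 uninjured and day 3 libraries and high in the 3 day 7 libraries, whereas Thbs1 is highest in uninjured replicate 1 at 172 CPM.

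Cthrc1, Spp1 and Postn had the largest rises of the set. Cthrc1 encodes a secreted protein of activated fibroblasts that affects collagen deposition and Wnt signalling. It was at 0.732, 0.735 and 0.578 CPM in uninjured replicates 1 to 3 (6, 12 and 4 counts), at 3.08 and 3.53 CPM in day 3 replicates 1 and 2, and at 97.0, 141 and 88.4 CPM in day 7 replicates 1 to 3. No group overlapped another. The rise from uninjured to day 7 was 154-fold (log2 7.27 ± 0.32 SE, edgeR adjusted p = 2.53e-06), and the rank of Cthrc1 by CPM per kilobase went from 15382 to 899.

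Spp1 encodes osteopontin, a phosphorylated ligand of integrins and Cd44 that macrophages and several epithelia secrete. It was at 0.976, 0.674 and 0.722 CPM in uninjured, 2.67 and 3.96 CPM in day 3 and 59.2, 85.4 and 39.5 CPM in day 7 libraries, again with no overlap between groups. Its rise to day 7 was 77.8-fold (log2 6.28 ± 0.40 SE, edgeR adjusted p = 5.86e-05). Postn binds collagen and fibronectin and is a marker of activated dermal fibroblasts. It was at 15.6, 16.7 and 7.65 CPM in uninjured, 32.5 and 37.3 CPM in day 3 and 484, 750 and 478 CPM in day 7 libraries, so that each group lay above the one before it. At day 7, Postn had a log2 fold change of 5.41 ± 0.37 (SE) and by itself held 46.8% of the mean CPM of the set without Sparc, beside 4.48% in uninjured skin.

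Sequence upstream of the start site was at hand for 6 of the 10 genes, in RefSeq windows on GRCm38.p6. Those of Postn, Spp1 and Tnc are shown because these genes rose, and that of Ccn1 because its level split the uninjured libraries. Each is the 250 bases before the start, read 5′ to 3′ on the gene's own strand. Where the table held several windows for a gene, the one nearest to the gene's 5′ end in GENCODE M21 was taken. Capitals mark matches, on either strand, to the TATA box letters TATAAA, the TEAD motif GGAATG, the AP-1 motif TGANTCA, the RUNX motif ACCACA and the CArG box of SRF.
Postn, chr3:54360857-54361106, plus strand: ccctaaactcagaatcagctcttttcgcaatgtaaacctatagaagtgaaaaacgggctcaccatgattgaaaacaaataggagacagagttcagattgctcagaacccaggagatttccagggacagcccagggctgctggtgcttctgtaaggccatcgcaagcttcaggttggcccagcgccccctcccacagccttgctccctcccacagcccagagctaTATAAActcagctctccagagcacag
Spp1, chr5:104434861-104435110, plus strand: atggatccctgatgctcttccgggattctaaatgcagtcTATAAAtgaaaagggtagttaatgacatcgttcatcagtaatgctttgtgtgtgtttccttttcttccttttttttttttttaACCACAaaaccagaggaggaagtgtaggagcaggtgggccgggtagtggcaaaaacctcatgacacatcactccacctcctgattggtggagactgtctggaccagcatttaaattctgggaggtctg
Tnc, chr4:64047016-64047265, minus strand: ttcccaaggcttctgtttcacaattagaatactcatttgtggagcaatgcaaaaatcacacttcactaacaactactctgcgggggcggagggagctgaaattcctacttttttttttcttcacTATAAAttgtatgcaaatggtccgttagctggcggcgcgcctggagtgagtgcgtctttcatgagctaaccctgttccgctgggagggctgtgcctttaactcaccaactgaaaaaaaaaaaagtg
Ccn1, chr3:145649986-145650235, minus strand: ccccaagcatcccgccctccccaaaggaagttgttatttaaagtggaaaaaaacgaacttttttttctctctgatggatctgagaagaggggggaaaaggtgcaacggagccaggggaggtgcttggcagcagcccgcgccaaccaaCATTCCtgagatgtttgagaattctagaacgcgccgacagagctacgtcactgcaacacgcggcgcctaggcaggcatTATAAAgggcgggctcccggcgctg

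TATAAA stood 26 to 21 bases before the start in Postn and 25 to 20 bases before it in Ccn1, the distance usual for a TATA box. That distance depends on the start used. The start of the Postn window lies 18 bases from that of the transcript marked as principal in GENCODE M21, and that of Ccn1 4 bases. In Tnc it lay at 126 to 121 bases and in Spp1 at 211 to 206 bases. Thbs2, which did not pass in any comparison, also held it, on the opposite strand at 126 to 121 bases, and Sparc held none of the 5 motifs. The TEAD motif was matched in Ccn1 alone of the 6 windows (103 to 98 bases before the start) and the RUNX motif in Spp1 alone (128 to 123 bases). Of 32851 windows of this length in the table, 12.4% held TATAAA, 12.6% the TEAD, 6.75% the AP-1, 14.0% the RUNX and 1.47% the CArG motif. These matches describe letters in the window only. Thbs1, Cthrc1, Ccn2 and Fn1 had no entry.

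Tnc, Fn1 and Ccn2 rose as well, with more spread. Tenascin C is a large, multi-armed glycoprotein that appears transiently at wound margins. Tnc was at 1.10, 5.45 and 0 CPM in uninjured replicates 1, 2 and 3 (9, 89 and 0 counts; a count of 0 allows up to 0.433 CPM, counting error only). It was at 5.35 and 21.7 CPM in day 3 and 115, 97.3 and 41.1 CPM in day 7 libraries. All day 7 libraries were thus above all others, whereas day 3 replicate 1 was below uninjured replicate 2. The log2 fold change of Tnc at day 7 was 5.08 ± 0.89 (SE, edgeR adjusted p = 0.00981). It was 7.14 without uninjured replicate 2, and the call was lost without uninjured replicate 1 (adjusted p = 0.0525).

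Fn1 was at 14.5, 23.3 and 15.2 CPM in uninjured, 35.4 and 111 CPM in day 3 and 152, 208 and 69.4 CPM in day 7 libraries. Day 3 and day 7 overlapped each other and both lay above uninjured skin. Its log2 fold change at day 7 was 3.01 ± 0.48 (SE, edgeR adjusted p = 0.00741). Ccn2, also known as connective tissue growth factor, was at 3.90, 2.69 and 3.18 CPM in uninjured libraries. It was at 32.1 and 9.19 CPM in day 3 and 20.5, 35.2 and 10.9 CPM in day 7 libraries, which overlapped. Its log2 fold change at day 7 was 2.78 ± 0.53 (SE, edgeR adjusted p = 0.0139). That call was lost without uninjured replicate 1, 2 or 3 (adjusted p = 0.0537, 0.0516 and 0.0526) or day 7 replicate 2 (adjusted p = 0.0566).

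The other 4 genes did not pass at day 7. Sparc was at 3263, 5671 and 5149 CPM in day 7 libraries. All 3 lay above the uninjured range, yet its log2 difference of 0.71 ± 0.34 (SE) did not pass (edgeR adjusted p = 0.211). Because its level was high, Sparc still held 74.1% to 85.0% of the counts of the set at day 7. Thbs2, a thrombospondin that restrains angiogenesis and collagen fibril growth, was at 158, 102 and 109 CPM in uninjured, 46.1 and 194 CPM in day 3 and 107, 156 and 122 CPM in day 7 libraries. All groups overlapped, and the log2 difference at day 7 was 0.06 ± 0.42 (SE, edgeR adjusted p = 0.943).

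Thbs1 was the only gene of the set with a lower mean at day 7. It was at 172, 118 and 35.5 CPM in uninjured replicates 1, 2 and 3, at 22.6 and 79.2 CPM in day 3 and at 34.3, 41.2 and 15.5 CPM in day 7 libraries. Day 7 replicate 2 overlapped uninjured replicate 3, the lowest of its group. The log2 difference of -1.84 ± 0.59 (SE) did not pass (edgeR adjusted p = 0.0792). It passed in DESeq2 (adjusted p = 0.00635) and in edgeR without uninjured replicate 3 (adjusted p = 0.0464), day 3 replicate 1 (adjusted p = 0.0477) or day 3 replicate 2 (adjusted p = 0.0461).

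Ccn1 was at 62.8, 6.06 and 16.0 CPM in uninjured replicates 1, 2 and 3, a 10.4-fold range within one group. It was at 25.7 and 62.4 CPM in day 3 and 68.7, 94.3 and 45.4 CPM in day 7 libraries. Uninjured replicate 1 lay within the day 7 range and replicates 2 and 3 below it. The log2 difference at day 7 was 1.31 ± 0.67 (SE, edgeR adjusted p = 0.234). Without uninjured replicate 1 it was 2.66 and passed (adjusted p = 0.0437).

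Uninjured replicate 1, with the highest Ccn1 and Thbs1 of its group, was also high in some genes that respond quickly to stress or stretch. These were chosen after values were seen. The YAP and muscle stress gene Ankrd1 was at 69.4, 22.4 and 14.4 CPM in uninjured replicates 1, 2 and 3, and the immediate early genes Egr1 at 19.5, 5.70 and 5.2 CPM, Atf3 at 12.9, 2.94 and 3.03 CPM and Nr4a1 at 19.4, 2.88 and 4.91 CPM. Skeletal muscle markers were also highest in that library (9324, 5995 and 4143 CPM summed over 7 genes). Fos (9.03, 2.20 and 7.37 CPM) and Junb (42.8, 29.2 and 64.6 CPM) did not single it out. Of the 8 immediate early genes, 1 rose at day 7 against uninjured skin (Fos, edgeR adjusted p = 0.0233). The part of these genes in the level of Ccn1 and Thbs1 was not tested.

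**Figure D2:**
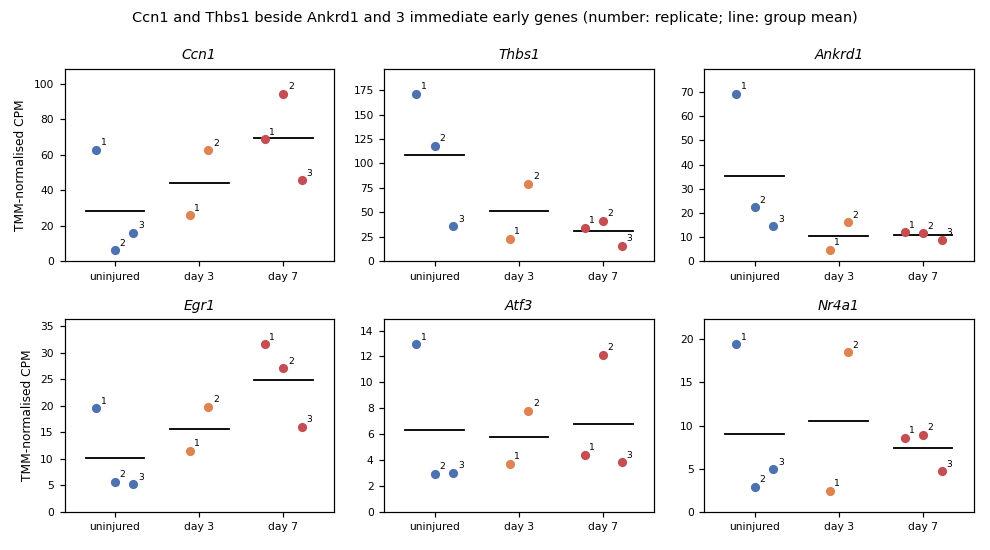
TMM-normalised CPM (y axes starting at 0) of Ccn1, Thbs1, Ankrd1, Egr1, Atf3 and Nr4a1 in each library, with points numbered by replicate and lines at group means. Ankrd1, Egr1, Atf3 and Nr4a1 were chosen after their values were seen. Uninjured replicate 1 is the highest of its group in all 6 panels, at 62.8 CPM for Ccn1 against 6.06 and 16.0 CPM in replicates 2 and 3.

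At day 3 against uninjured skin, 0 of the 10 genes rose or fell in edgeR, where 0.0107% of all tested genes rose and 0% fell. At an unadjusted p under 0.05, 6 lay higher and 0 lower, and DESeq2 called 5 higher and 0 lower. Of all 18656 tested genes, 1412 lay higher and 1006 lower at that unadjusted p. DESeq2 called 330 higher and 102 lower over the whole table. Both day 3 libraries lay above all uninjured libraries for 5 genes (Postn, Spp1, Cthrc1, Ccn2 and Fn1), an order shown by 16.9% of tested genes. With 2 libraries in the group, single libraries weighed much here. The log2 difference of Ccn2 was 2.65 ± 0.57 (SE, edgeR adjusted p = 0.167), and it was 1.5 without day 3 replicate 1 and 3.29 without day 3 replicate 2, when it passed (adjusted p = 0.0133). That of Cthrc1, 2.24 ± 0.35 (SE, edgeR adjusted p = 0.114), passed without day 7 replicate 3 (log2 2.24, adjusted p = 0.0403), a library of neither group compared, and the cause was not tested.

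The day 3 and day 7 differences share the same uninjured libraries and are set side by side here as values. For Ccn2 the log2 differences were 2.65 at day 3 and 2.78 at day 7, and for Fn1 2.05 and 3.01. Tnc stood at 2.47 and 5.08. These day 3 values rest on single libraries: Fn1 was at 0.97 without day 3 replicate 2 and 2.64 without replicate 1, and Tnc at 1.08 without day 3 replicate 2 and 4.54 without uninjured replicate 2. Cthrc1 stood at 2.24 and 7.27, Spp1 at 2.11 and 6.28 and Postn at 1.38 and 5.41. Sparc was at -0.54 ± 0.39 (SE) at day 3, with -0.21 and -0.997 without day 3 replicate 1 or 2, and at 0.71 ± 0.34 at day 7.

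**Figure D3:**
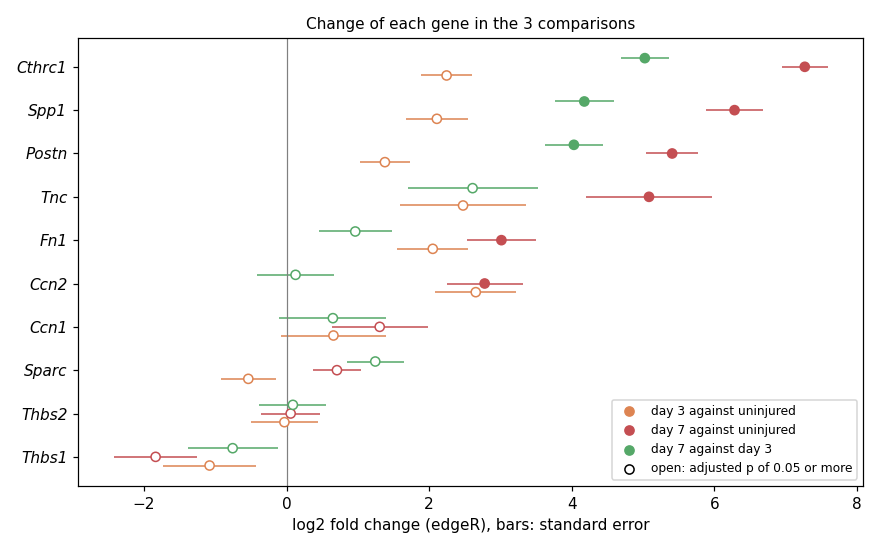
Log2 fold change (x axis, bars are standard errors) of each gene in the 3 comparisons from the edgeR fit, ordered by the value at day 7 against uninjured; filled points passed at an adjusted p under 0.05. Cthrc1, Spp1 and Postn are filled in both comparisons of day 7, at 5.02, 4.17 and 4.03 against day 3, whereas Ccn2 has its day 3 and day 7 values (2.65 and 2.78) close together.

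The direct comparison of day 7 with day 3 called 3 of the 10 genes higher and 0 lower, where 0.0643% of tested genes rose (12 genes) and 0.0214% fell. At an unadjusted p under 0.05, 5 were higher and 0 lower, and DESeq2 called 4 higher and 0 lower. Of all 18656 tested genes, 1189 were higher and 865 lower at that unadjusted p. DESeq2 called 147 higher and 86 lower over the whole table. Cthrc1 rose 32.5-fold (log2 5.02 ± 0.33 SE, edgeR adjusted p = 0.000197), Spp1 18.1-fold (4.17 ± 0.41, adjusted p = 0.00499) and Postn 16.3-fold (4.03 ± 0.41, adjusted p = 0.00499). All 3 calls held in edgeR without any 1 of the 8 libraries. For 5 genes (these 3, Tnc and Sparc) each day 7 library lay above both day 3 libraries, as for 14.2% of tested genes. The log2 difference of Tnc was 2.61 ± 0.91 (SE, edgeR adjusted p = 0.393, and 8.11e-10 with no filter) and that of Sparc 1.24 ± 0.40 (adjusted p = 0.363, and 0.0242 in DESeq2). Fn1 (0.96 ± 0.51 SE), Ccn1 (0.65 ± 0.75), Ccn2 (0.12 ± 0.54), Thbs2 (0.09 ± 0.47) and Thbs1 (-0.76 ± 0.63) did not pass either.

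Ratios of 2 genes within a library do not depend on how libraries are scaled. Per kilobase, Cthrc1 stood at 0.256, 0.240 and 0.412 of Postn in uninjured replicates 1 to 3, at 0.519 and 0.517 in day 3 and at 1.09, 1.03 and 1.01 in day 7 libraries. The ratio was higher in each group than in the one before it, without overlap. By day 7 both genes had about the same level per kilobase of deposited exon length (8702 bases for Postn and 1593 for Cthrc1). Whether their transcripts were equally abundant depends on the transcript lengths, which were not examined. Fn1 stood at 0.692, 1.04 and 1.48 of Postn in uninjured libraries, at 0.811 and 2.21 in day 3 and at 0.234, 0.207 and 0.108 in day 7 libraries. Postn was thus the higher of the pair in all day 7 libraries, whereas before day 7 either gene could lead. Thbs1 stood at 1.25, 1.34 and 0.374 of Thbs2 in uninjured, 0.566 and 0.471 in day 3 and 0.371, 0.305 and 0.146 in day 7 libraries, with uninjured replicate 3 beside day 7 replicate 1. The ratio of Ccn2 to Ccn1 was 0.881 in day 3 replicate 1 and between 0.0438 and 0.314 in the other 7 libraries.

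By day 7 the order of the genes had changed. Sparc stayed on top at 1239 ± 334 CPM per kilobase (SD, n = 3), now the 34th highest of the tested genes. Cthrc1 and Postn came next at 68.3 ± 17.7 and 65.6 ± 17.8 CPM per kilobase, with overlapping ranges, then Spp1 and Ccn1 at 37.2 ± 14.0 and 34.4 ± 12.1, likewise overlapping. Thbs2 (18.3 ± 3.57), Fn1 (12.3 ± 5.97), Tnc (10.9 ± 4.98), Ccn2 (7.76 ± 4.27) and Thbs1 (4.99 ± 2.19 CPM per kilobase) followed, each overlapping with the next. Thbs1, second in uninjured skin, was last at day 7.

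The libraries of a group also differed in a shared way. Day 7 replicate 2 was the highest of its group for 9 of the 10 genes, Tnc being the exception, and replicate 3 was the lowest for 8 (all but Sparc and Thbs2). Day 3 replicate 2 was above replicate 1 for 9 of the 10, with Ccn2 alone the other way. As a description over the 8 libraries, which share group means, log2 CPM of Spp1 and Cthrc1 had a Pearson correlation of 0.997, Postn and Cthrc1 of 0.994 and Postn and Spp1 of 0.990. Thbs1 had negative correlations with these 3, from -0.520 with Postn to -0.585 with Cthrc1.

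Outside the set, the 3 named genes with the pattern most like each member over the 8 libraries were partly shared. For Postn they were Fndc4, Ido1 and Lrrc15, for Cthrc1 Ido1, Fndc4 and Sprr2a3, and for Spp1 Sprr2a3, Rcn3 and Ido1 (Pearson r from 0.982 to 0.990). For Tnc they were Sprr2a2, Sprr2a1 and Fbln1 (r from 0.985 to 0.987). Sprr2a1, Sprr2a2 and Sprr2a3 are near-identical copies whose counts are uncertain. Fn1 was closest to Oasl2, Scarf2 and Cyba (r from 0.984 to 0.992), Ccn2 to Osbpl3, Tbc1d24 and Ptgis (0.983 to 0.987) and Sparc to Ppic, Cpxm2 and Creb3l1 (0.960 to 0.988). Thbs1 was closest to Slc6a2, Tmem246 and Pdlim7 (0.960 to 0.976), Thbs2 to Traf7, Kcne4 and Lmna (0.942 to 0.949) and Ccn1 to Kifc3, Zkscan6 and Fpgs (0.938 to 0.947).

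The lists that follow stand beside 5.90% of tested genes that rose and 1.77% that fell at day 7 against uninjured skin. Unadjusted, 3214 of all 18656 tested genes were higher and 1773 lower, and DESeq2 called 1871 and 647. Among relatives of the set, 16 of 20 listed genes were tested, and 6 rose and 0 fell at day 7. The median log2 fold change was 1.81, with 9 higher and 0 lower at an unadjusted p under 0.05 (8 and 0 in DESeq2). Tnn (tenascin N, also called tenascin W) was at 0.244, 0.857 and 0.578 CPM in uninjured, 0 and 0.535 CPM in day 3 and 12.2, 10.9 and 7.43 CPM in day 7 libraries, a 16.9-fold rise (edgeR adjusted p = 0.00682). Ccn3 rose 15.9-fold (1.19 ± 0.93 to 20.7 ± 10.9 CPM, adjusted p = 0.0092), Ccn4 13.0-fold (adjusted p = 0.0162) and Thbs3 5.34-fold (adjusted p = 0.0149). Like Cthrc1 and Postn, Tnn was low in both day 3 libraries, but its difference of day 7 from day 3 did not pass (log2 4.91 ± 0.84 SE, adjusted p = 0.0649). At day 3, 0 of the 16 passed (5 higher and 0 lower unadjusted, 0 in DESeq2).

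Of 17 receptors, 4 rose and 0 fell at day 7 (median 0.52; 5 and 0 unadjusted, 4 and 0 in DESeq2). Itga5, which pairs with Itgb1 as the main fibronectin receptor, rose 3.27-fold (6.36 ± 1.99 to 20.7 ± 9.43 CPM, edgeR adjusted p = 0.0236). Itgb3, which with Itgav binds osteopontin, fibronectin and periostin, rose 6.25-fold (1.40 ± 0.60 to 9.05 ± 5.91 CPM, adjusted p = 0.0260). Itga8 rose 8.06-fold from 0.211 ± 0.14 CPM (adjusted p = 0.0366), and the syndecan Sdc1 3.13-fold (adjusted p = 0.0125). The Itga8 fold rests on few reads. It was at 0.122 and 0.144 CPM in uninjured replicates 1 and 3, where 3 counts equal 0.366 and 0.433 CPM. The partner chains Itgb1 and Itgav did not pass, at 162 ± 31.4 and 17.2 ± 2.55 CPM in uninjured and 181 ± 43.1 and 24.8 ± 8.60 CPM in day 7 libraries, nor did the osteopontin receptor Cd44 (35.5 ± 31.0 and 59.8 ± 30.6 CPM). Cd36, a thrombospondin receptor and fatty acid transporter of adipocytes, was at 1639.5 ± 127 and 1199.9 ± 496 CPM (adjusted p = 0.381).

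Of 14 TGF-beta genes, 0 passed at day 7 (median 0.45; 3 higher and 0 lower unadjusted; 3 and 0 in DESeq2), with Tgfb3 at 10.3 ± 3.93 and 25.5 ± 8.85 CPM (edgeR adjusted p = 0.0753). Of 15 genes of YAP, TEAD and SRF, 1 rose and 0 fell (median 0.26; 3 and 2 unadjusted; 2 and 2 in DESeq2). It was Tead2, 13.9-fold (adjusted p = 0.00958), whose day 3 libraries split as the luminal markers did, at 15.6 and 2.78 CPM. Of 16 matrix partners and assembly enzymes, 11 rose and 0 fell (median 2.03), among them the collagen chains Col1a1 (16.9-fold) and Col1a2 (13.5-fold), Bmp1 (9.08-fold, edgeR adjusted p = 0.000944), a protease that trims procollagen, and Col6a3 (4.24-fold, adjusted p = 0.00682). Of 9 tested matrix proteases, 6 rose and 0 fell (median 2.82), among them Mmp3 (14.0-fold), the membrane-bound Mmp14 (8.57-fold) and the plasminogen activator Plat (7.25-fold). Mmp12, the elastase of macrophages, alone of the genes in these lists, rose against day 3 too. Mmp12 was at 0.488, 0.735 and 1.01 CPM in uninjured, 0.823 and 1.5 CPM in day 3 and 25.2, 26.5 and 19.9 CPM in day 7 libraries (day 7 against day 3, edgeR adjusted p = 0.00576).

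At day 3 against uninjured skin, 0 genes of these lists passed in edgeR, where 0.0107% of all tested genes rose. Unadjusted, 1412 of all 18656 tested genes were higher and 1006 lower, and DESeq2 called 330 and 102. At an unadjusted p under 0.05, 2 receptors were higher and 0 lower (0 in DESeq2), as were 2 and 2 TGF-beta genes (1 and 0 in DESeq2), 1 and 3 of the YAP, TEAD and SRF genes (1 and 1), 6 and 1 of the matrix partners (3 and 0) and 2 and 0 of the proteases (1 and 0). From day 3 to day 7, 11 of the 16 matrix partners were higher and 0 lower unadjusted, 0 passed in edgeR and DESeq2 called 6. Of all tested genes, 1189 were higher and 865 lower unadjusted in that comparison, and DESeq2 called 147 and 86.

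Some lists of cell type markers changed at day 7 against uninjured skin and others did not. In that comparison 5.90% of all tested genes rose and 1.77% fell. Macrophage and monocyte markers (8 genes, 3 rose and 0 fell at day 7) summed to 74.7 to 178 CPM in uninjured, 160 and 638 CPM in day 3 and 373 to 813 CPM in day 7 libraries, with Trem2 at 0 in uninjured replicate 3 and day 3 replicate 1. The sum of day 3 replicate 2 lay within the day 7 range, though not every marker did. Mrc1 was at 90.2 CPM in that library, above every day 7 library. Gpnmb alone of the 8 lay below every day 7 library, at 9.41 CPM against 33.8, 33.7 and 27.9 CPM in day 7 replicates 1 to 3. The other markers in day 3 replicate 2 lay within or above their day 7 ranges. Spp1 was at 3.96 CPM in day 3 replicate 2 and at 39.5 CPM or more at day 7. Luminal mammary markers (7 of 7 rose) summed to 11.3 to 26.7 CPM in uninjured and 543 to 1197 CPM in day 7 libraries. Csn3 was at 0 in all uninjured libraries, Wfdc18 in replicates 1 and 3 and Ltf in replicate 1. In day 3 replicate 1 they summed to 1544 CPM, above every day 7 library, and Cthrc1, Spp1 and Postn were at 3.08, 2.67 and 32.5 CPM there.

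Endothelial markers (7 genes, 5 rose and 0 fell) summed to 71.1 to 159 CPM in uninjured, 218 and 235 CPM in day 3 and 118 to 442 CPM in day 7 libraries. In day 7 replicate 3, at 118 CPM and within the uninjured range, Cthrc1 was at 88.4 CPM and Postn at 478 CPM. The top of that uninjured range, replicate 2, included 74.7 CPM of Cdh5, which was at 2.07 and 3.03 CPM in replicates 1 and 3. All endothelial markers but Cdh5 and Kdr were higher in day 7 replicate 3 than in every uninjured library. Fibroblast markers (7 genes, 4 rose and 0 fell) summed to 522 to 1117 CPM in uninjured, 390 and 892 CPM in day 3 and 981 to 1735 CPM in day 7 libraries. Most of the uninjured sum was Dpt, which did not pass (634 ± 226 CPM in uninjured skin, 449 ± 141 CPM at day 7), whereas Dcn rose 3.66-fold and Mfap5 12.8-fold. Mural cell markers (7 genes, 3 rose and 0 fell) summed to 244 to 348 CPM in uninjured and 207 to 281 CPM in day 7 libraries. Mcam, at 229 ± 48.0 and 121 ± 23.1 CPM, made up most of the uninjured sum, while Myh11 rose 5.11-fold and Notch3 5.16-fold. The 7 skeletal muscle markers all fell, with sums of 4143 to 9324 CPM in uninjured and 686 to 1266 CPM in day 7 libraries. Keratinocyte markers (7 genes, 0 passed, 0 also unadjusted and in DESeq2) summed to 1387 to 2316 CPM in uninjured and 1487 to 5177 CPM in day 7 libraries. Platelet markers (2 of 6 tested, 0 passed in edgeR, 2 higher unadjusted, 1 in DESeq2) summed to 5.49 to 26.0 CPM and 26.4 to 91.3 CPM. Of 6 Schwann cell markers, which summed to 50.7 to 65.0 CPM and 48.9 to 82.6 CPM, 2 rose and 1 fell. Of the 7 adipocyte markers 0 passed at day 7 (0 higher and 2 lower unadjusted, 0 and 1 in DESeq2). At day 3, 0 markers of any list passed, although at an unadjusted p under 0.05 all 7 luminal (6 in DESeq2), 7 of 8 macrophage (3 in DESeq2) and 5 of 7 endothelial markers (4 in DESeq2) lay higher. Of all 18656 tested genes, 1412 lay higher and 1006 lower at that p, and DESeq2 called 330 and 102. The part of these cell types in the rises of the set was not tested.

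**Figure D4:**
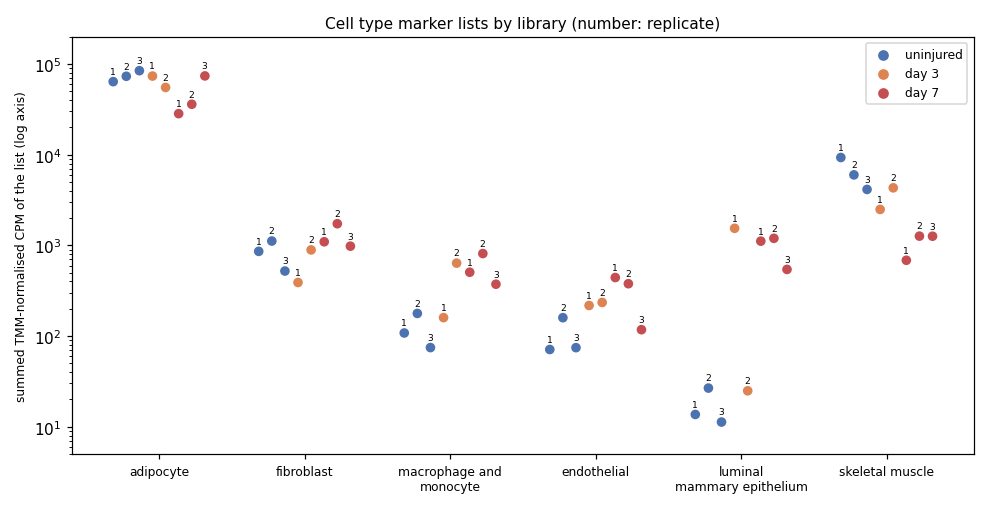
Summed TMM-normalised CPM (y axis, log scale) of 6 lists of cell type markers, with 1 point per library in the order uninjured, day 3 and day 7, numbered by replicate. Luminal mammary markers split the day 3 libraries (1544 and 24.9 CPM), and macrophage markers of day 3 replicate 2 (638 CPM) lie within the day 7 range of 373 to 813 CPM.

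The coordinates deposited with the counts put Postn (ENSMUSG00000027750.17) on chromosome 3 from 54268530 to 54298458, Cthrc1 (ENSMUSG00000054196.8) chromosome 15 from 38940327 to 38950516, Spp1 (ENSMUSG00000029304.15) chromosome 5 from 104582984 to 104588916 and Tnc (ENSMUSG00000028364.16) chromosome 4 from 63878022 to 63965252. None of the 10 spans equals that of the gene in the GRCm38 annotation. These coordinates thus do not match mm10, the build in the processing notes, and their own build is not given. They are not to be read against the windows above. Exons of Tnc, Thbs1, Spp1, Ccn2 and Fn1 overlap those of another row, on the opposite strand for all but Spp1. At most 974 exon bases were shared for Spp1, 1164 for Ccn2, 3980 for Fn1, 528 for Tnc and 297 for Thbs1. None of those rows had more than 4 counts in a library. Whether counting used strand, and whether reads in shared bases were left uncounted, is not known.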

How the data were processed

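The values used were raw read counts per gene, deposited by the authors with 1 column per library. The table was made by featureCounts 2.0.8, as its header records, and STAR 2.7.10b, DESeq2 and the build mm10 stand in the submitters' processing notes, without their roles. The deposited coordinates of all 10 genes differ from that build. The strand setting, not given in the sources used here, decides how antisense overlaps were counted. Of the 53700 identifiers, 52093 were matched to symbols through GENCODE M21. Counts were TMM-normalised and tested across all genes with edgeR 4.0.16 (R 4.3.3): filterByExpr with a minimum count of 10, 1 mean per group over all 8 libraries (5 residual degrees of freedom), quasi-likelihood F tests, two-sided, Benjamini-Hochberg adjusted at 0.05. Each standard error is the absolute log2 fold change over the root of F. Log2 CPM for correlations used a prior count of 2. Alternatives were DESeq2 1.42.0, a minimum count of 30 or no filter, edgeR with upper-quartile scaling or DESeq2 size factors, only the compared groups, a replicate block and leaving out each library. The fit was tested on simulated data.

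The members, gene lists and marker lists were chosen with earlier results of these data known. By rule, up to 4 called genes with the smallest adjusted p were named per list (all called receptors), 3 genes of most similar pattern per member and at most 3 genes per marker list. Outside that rule, and after their values were seen, Itgb1, Itgav, Cd44, Cd36, Tgfb3, Ankrd1, Egr1, Atf3, Nr4a1, Fos and Junb were named.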

Additional observations from a re-analysis of the deposited data

Results flagged for a closer look

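The effect of wounding differed between day 3 and day 7 for 3 of the genes. The test of this difference is the day 7 against day 3 comparison already given above, not a second test. The log2 effect at day 7 minus that at day 3 was 5.02 for Cthrc1 (edgeR adjusted p = 0.000197, each of 3 day 7 libraries above both day 3 libraries), 4.17 for Spp1 (adjusted p = 0.00499, likewise) and 4.03 for Postn (adjusted p = 0.00499, likewise). Over all 15 alternatives the adjusted p had its highest value at 0.00708 for Cthrc1, 0.0238 for Spp1 and 0.0263 for Postn.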

How the results depend on the processing

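At day 7 against uninjured, 6 genes rose in the reported fit and 5 to 7 under the alternatives. The count that fell was 0, and 1 (Thbs1) with no filter, in DESeq2, with the replicate block and in some fits without 1 library (0 to 1). At day 3 the count that rose was 0, but 6 with no filter, 5 in DESeq2 and 0 to 1 without 1 library, and 1 fell with no filter. At day 7 against day 3, 3 rose, 4 with no filter (Tnc added), in DESeq2 (Sparc added) and with the replicate block (Tnc added, log2 3.54, adjusted p = 0.0394), and 3 in every fit without 1 library. The fit with no filter called 926 genes at day 3 against 2 in the reported fit and gave much smaller p-values, the cause of which was not tested. Called genes over the whole table at day 7 against uninjured ranged from 314 (without uninjured replicate 1) to 4055 (without day 7 replicate 3), beside 1431. DESeq2 called 2518 there, 432 at day 3 and 233 at day 7 against day 3, and the fit with no filter 3156, 926 and 572. Day 3 gave 0 to 150 calls and day 7 against day 3 gave 5 to 34 without 1 library, beside 2 and 16; DESeq2 size factors and upper-quartile scaling gave 24 and 26 for the latter, and day 3 gave 0 with a minimum count of 30 or only the groups compared. At day 7 against uninjured, calls numbered 314, 809 and 468 without uninjured replicate 1, 2 or 3, and 393 and 386 without day 7 replicate 1 or 2.

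Directions turned only for values that had not passed; the cause was not tested. At day 7 against uninjured, the log2 difference of Thbs2 (0.06) was -0.021 with the replicate block and ranged from -0.091 to 0.26 without 1 library. At day 3 that of Thbs2 (-0.03) was 0.076 with upper-quartile scaling and -1.44 to 0.65 without 1 library, and that of Ccn1 (0.66) was -0.15 to 2.04. At day 7 against day 3, without 1 library, the values ranged from -0.61 to 1.48 for Thbs2, -1.40 to 0.43 for Thbs1 and -0.52 to 1.26 for Ccn2.

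The titles number the replicates within each group and do not say whether equal numbers are paired. Deviations of same-numbered libraries from their group means correlated between -0.0741 and 0.203, and those of differently numbered libraries between -0.225 and 0.207. Deviations of the 2 day 3 libraries mirror each other, and these correlations cannot decide whether the numbers are paired. With the replicate block, called genes over the whole table went from 1431 to 2131 at day 7, from 2 to 7 at day 3 and from 16 to 126 at day 7 against day 3. Day 3 has 2 libraries, the shallowest of them with 5308959 counts, which limits precision there, and the floor for a count of 0 covers counting error only.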
